A study of Homo sapiens with 18 samples.

Results

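K562 is a human erythroleukaemia line that carries the BCR-ABL fusion kinase and expresses embryonic and fetal globin genes. RNA was sequenced from 18 libraries of these cells, and the 5 lentiviral libraries that the labels number 3 are described here against the 10 lentiviral libraries numbered 1 and 2. These are all 15 libraries of the lentiviral groups, 1 number 3 library in each of 5 groups. The groups were dCas9_KRAB_HS2_CR4 and dCas9_KRAB_HS2_CR10, which carried nuclease-dead Cas9 (dCas9) fused to the KRAB repressor domain with a guide RNA (gRNA) to HS2, an enhancer of the beta-globin cluster; dCas9_HS2_CR4 and dCas9_HS2_CR10, which carried dCas9 without KRAB and the same gRNAs; and dCas9_KRAB, which carried the repressor without a gRNA. Every one of these 15 libraries came from cells exposed to lentivirus with 4 µg/ml polybrene and put under 1 µg/ml puromycin from about 96 hours later. A further 3 libraries, No_lentivirus_control, came from untransduced K562 cells, and the medium of all groups held 10% serum. The series text speaks of transduction in triplicate; no label says what a number shares across groups (a day, a batch of cells or virus, a sequencing run), so the number is used here as a label only and p-values measure the spread between these libraries. The libraries were selected on their gene counts, whose differences from numbers 1 and 2 within groups stood apart, so the differences between number 3 and numbers 1 and 2 are given as a description, without p-values, and nothing is inferred from how many genes differed.

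Cells that lack an amino acid, haem or proper protein folding phosphorylate the translation factor eIF2, which slows most protein synthesis and favours translation of the transcription factor ATF4. ATF4 in turn induces genes for amino acid synthesis, uptake and tRNA charging together with stress regulators such as DDIT3 and TRIB3, a programme called the integrated stress response. Heat shock genes form a separate programme under HSF1, sterol synthesis genes one under SREBP2, and growing cells keep nucleolar ribosome assembly and DNA replication genes high, partly through MYC and E2F.

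The number 3 libraries held 22805964 to 26179446 counts, the libraries numbered 1 and 2 held 23430398 to 32364862, and the untransduced libraries held 30561028 to 34032962. Between 16690 and 17125 genes had at least 1 count in number 3 libraries, against 16023 to 16777 in numbers 1 and 2. Ribosomal RNA took 1.08% to 1.20% of the counts in number 3 libraries and 0.570% to 4.02% in numbers 1 and 2, where dCas9_KRAB_HS2_CR4 library 2 was highest. HBE1, the embryonic globin gene under HS2, checked the labels only for KRAB together with a gRNA. It stood at 55.6 to 67.9 CPM (counts scaled by library size) in dCas9_KRAB_HS2_CR4 and 74.2 to 94.8 CPM in dCas9_KRAB_HS2_CR10. It stood at 326 to 401 CPM in dCas9_HS2_CR4, 329 to 427 CPM in dCas9_HS2_CR10 and 433 to 467 CPM in dCas9_KRAB. The ranges of dCas9_HS2_CR4 and dCas9_HS2_CR10 overlapped, so HBE1 cannot check their gRNA labels, and it does not check the replicate numbers. Untransduced library 2 stood apart from untransduced libraries 1 and 3, and untransduced values are given library by library where they are printed.

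Of 14599 genes tested with edgeR at an adjusted p under 0.05, 3839 (26.3%) were called higher and 3542 (24.3%) lower in number 3 libraries, 7381 (50.6%) in all. The rule chose the libraries by these same values, so nothing is read from the counts. Most differences were small: 667 genes (4.57%) were called and more than 2-fold higher, 65 (0.445%) called and more than 2-fold lower, and the median log2 fold change of all genes was 0.03. All 5 number 3 libraries lay above all 10 others for 1426 genes (9.77%) and below all 10 for 1594 genes (10.9%). Number 3 was above both other libraries in each of the 5 groups for 2449 genes (16.8%) and below both in each for 2529 (17.3%). The first principal component of the 15 lentiviral libraries, over the 2000 most variable genes at 5 CPM or more, held 70.1% of the variance. Number 3 libraries lay between 15.1 and 26.0 on it and the others between -17.5 and -4.06. Within each group the difference of number 3 from the mean of numbers 1 and 2 correlated with that of the other groups at r = 0.747 to 0.888 across 10366 genes, a description over genes that share their libraries. Its standard deviation was smallest in dCas9_KRAB_HS2_CR10 (0.323 on the log2 scale) and largest in dCas9_HS2_CR10 (0.456).

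Genes of the integrated stress response were higher in number 3 libraries. Of the 18 genes listed, 16 passed the filter on low counts and 14 of them were called higher, none lower, with a median log2 fold change of 1.15 against 0.03 for all genes. CHAC1, a glutathione-degrading enzyme induced through ATF4, stood at 31.0 CPM in dCas9_KRAB, 57.7 in dCas9_HS2_CR4, 84.3 in dCas9_KRAB_HS2_CR4, 94.97 in dCas9_HS2_CR10 and 59.7 in dCas9_KRAB_HS2_CR10 among number 3 libraries, against 6.95 to 10.4 (median 7.91) in numbers 1 and 2. Its log2 fold change was 2.95 ± 0.14 (SE, 5 against 10 libraries), and the lowest number 3 library lay well above the highest of the others. The SEs of number 3 differences treat libraries as independent, although same-numbered libraries deviated together. They do not measure the spread between numbers. ATF4 itself, the transcription factor, had a smaller difference at the RNA level. In the same order of groups it stood at 385, 406, 458, 460 and 409 CPM in number 3 libraries, against 252 to 323 CPM (median 270) in numbers 1 and 2, a log2 fold change of 0.62 ± 0.06 without overlap.

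Stress regulators downstream of ATF4 were higher as well, with dCas9_KRAB again the lowest number 3 library. DDIT3, which encodes the factor CHOP, stood at 24.6, 29.1, 46.3, 52.2 and 33.3 CPM in number 3 libraries, against 12.1 to 18.2 CPM (median 16.1) in numbers 1 and 2. ATF3, an early stress factor, stood at 29.6, 41.3, 55.1, 64.1 and 42.1 CPM, against 12.7 to 18.3 CPM (median 15.1). Neither overlapped. DDIT4, an inhibitor of mTORC1 signalling, stood at 446, 702, 844, 872 and 655 CPM, against 110 to 163 CPM (median 141), a log2 fold change of 2.33 ± 0.11. GDF15, a secreted stress cytokine, stood at 50.2, 74.6, 99.2, 98.0 and 76.9 CPM, against 18.1 to 27.8 CPM (median 20.8). INHBE, a subunit of the activin family of secreted factors, stood at 12.8, 22.9, 41.6, 51.8 and 27.5 CPM, against 3.48 to 6.25 CPM (median 5.08). The number 3 groups thus lay above the others for all of these genes, with dCas9_KRAB lowest. Among the 14 list members called higher, dCas9_KRAB was the lowest of the number 3 libraries for 13 and dCas9_HS2_CR10 the highest for 12. VLDLR, a lipoprotein receptor, had a log2 fold change of 2.81 ± 0.46 at no more than 1.09 CPM in any of the 15 libraries, with overlap. PPP1R15A and ATF5 were tested and not called, at log2 fold changes of 0.05 and 0.07, and NUPR1 and FGF21 did not pass the filter.

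**Figure D1:**
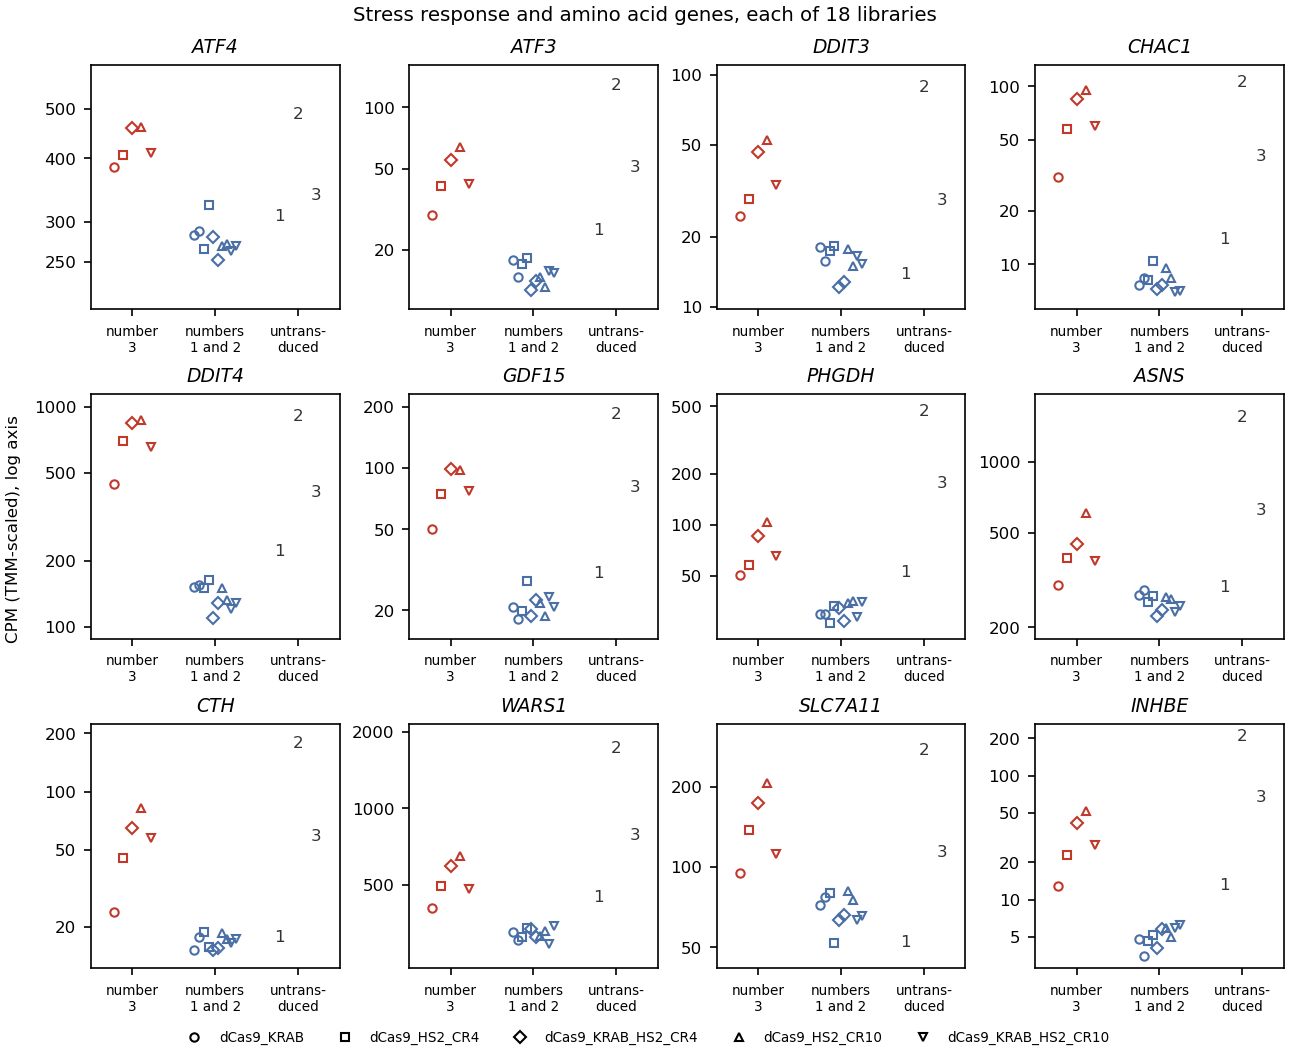
Levels of 12 stress response and amino acid genes in each of the 18 libraries, in TMM-scaled CPM on a log axis; red symbols are the 5 number 3 libraries, blue symbols the 10 libraries numbered 1 and 2, each symbol shape a lentiviral group, and digits the numbers of the 3 untransduced libraries. The number 3 libraries lie above numbers 1 and 2 for every gene shown, with dCas9_KRAB lowest, but the genes were chosen with these values known. Of all genes tested, 9.77% had all 5 number 3 libraries above all 10 others. Untransduced library 2 is the highest untransduced library in each panel.

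The untransduced libraries, which the choice of libraries did not use, also differed among themselves in these genes, but by another number. CHAC1 stood at 13.8, 105.5 and 40.5 CPM in untransduced libraries 1, 2 and 3, DDIT4 at 220, 911 and 409 CPM, and INHBE at 13.1, 209.5 and 66.7 CPM. Of the 14 stress genes called higher, 13 had the order 2 above 3 above 1, and 13 were higher in untransduced library 2 than in any number 3 lentiviral library. So number 3 was not the library that stood highest in untransduced cells, and for these 13 genes the level in library 2 went beyond that in transduced cells. Across 10366 genes, untransduced library 2 minus the mean of 1 and 3 correlated with the lentiviral difference at r = 0.569. Library 3 minus the mean of 1 and 2 gave r = -0.501, and library 1 minus the mean of 2 and 3 gave r = -0.485. These 3 differences sum to 0 for each gene, so the negative values are tied to the positive one and are no separate result. For the stress list the median log2 difference of library 3 from library 1 was 0.84. Of 2323 genes called higher in number 3 at this level, 80.0% were also higher in untransduced library 2, and of 3341 called lower, 78.2% were lower, against 51.0% of all genes. What number 3 lentiviral libraries and untransduced library 2 shared in handling was not tested, since no label gives it.

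ATF4 binds, with a C/EBP partner, a composite element whose core is TGATGNAA or, on the other strand, TTNCATCA. Both were searched in RefSeq promoter windows of build GRCh38.p14, 250 bases before to 50 after each annotated start; windows are shown where a member of the stress or amino acid lists holds the letters, in capitals. The motif was in 3.62% of all 35116 windows, and at least 1 window held it for 2.56% of the 11073 tested genes with a window. It was present for 3 of 14 stress genes with a window, 4 of 13 synthesis genes, 5 of 13 transporters and 7 of 16 tRNA synthetases. A match is a string of letters and not a measured binding site. The windows of CHAC1, of ASNS (asparagine synthetase) and of AARS1 (alanyl-tRNA synthetase) were:
CHAC1, chr15:40953221-40953520, strand plus: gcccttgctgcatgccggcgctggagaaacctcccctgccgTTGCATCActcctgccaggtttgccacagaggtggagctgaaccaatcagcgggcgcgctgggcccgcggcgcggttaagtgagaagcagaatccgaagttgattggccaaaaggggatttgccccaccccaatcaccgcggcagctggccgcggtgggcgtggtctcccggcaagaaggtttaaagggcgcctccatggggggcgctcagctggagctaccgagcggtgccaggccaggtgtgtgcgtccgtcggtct
ASNS, chr7:97872359-97872658, strand minus: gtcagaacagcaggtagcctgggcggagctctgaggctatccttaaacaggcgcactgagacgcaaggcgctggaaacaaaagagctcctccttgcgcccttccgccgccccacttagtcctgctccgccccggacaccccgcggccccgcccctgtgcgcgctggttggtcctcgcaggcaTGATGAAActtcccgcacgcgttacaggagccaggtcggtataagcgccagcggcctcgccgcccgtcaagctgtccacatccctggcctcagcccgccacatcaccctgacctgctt
AARS1, chr16:70289457-70289756, strand minus: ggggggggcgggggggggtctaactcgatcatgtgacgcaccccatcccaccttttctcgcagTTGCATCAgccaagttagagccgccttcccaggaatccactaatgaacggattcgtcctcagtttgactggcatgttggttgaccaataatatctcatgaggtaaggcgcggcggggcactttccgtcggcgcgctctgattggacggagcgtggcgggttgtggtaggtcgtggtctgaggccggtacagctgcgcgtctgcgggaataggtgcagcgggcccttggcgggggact

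Amino acid synthesis genes followed. Of 19 tested genes for serine, one-carbon and amino acid synthesis, 14 were called higher and 2 lower (MTHFD1 and ALDH18A1), with a median log2 fold change of 0.42. PHGDH, the first enzyme of serine synthesis, stood at 50.8, 57.9, 85.9, 103.3 and 65.7 CPM in number 3 libraries, against 26.5 to 35.3 CPM (median 31.0) in numbers 1 and 2. CTH, which makes cysteine from cystathionine, stood at 23.8, 45.4, 64.8, 82.8 and 57.5 CPM, against 15.2 to 18.8 CPM (median 16.9), and ASNS at 302.5, 393, 451, 605 and 382 CPM, against 223.5 to 288 CPM (median 259). None of these overlapped between number 3 and the others. In untransduced libraries 1, 2 and 3 PHGDH stood at 52.4, 469.7 and 175.6 CPM, so library 2 exceeded every transduced library. PSAT1, the next serine enzyme, ALDH1L2, a mitochondrial folate enzyme, and ASS1, which makes argininosuccinate, had log2 fold changes of 0.91, 1.56 and 1.49.

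Transporters and tRNA synthetases were mixed. Of 14 transporters tested 5 were called higher and 2 lower, with a median of 0.07. Over all genes tested 26.3% were called higher and 24.3% lower, so nothing is read from the transporter counts. SLC7A11, the cystine importer, stood at 94.7, 138, 173, 206 and 111 CPM in number 3 libraries, against 51.9 to 81.0 CPM (median 68.7), while SLC7A5 and SLC3A2, the subunits of the large neutral amino acid transporter, were at log2 fold changes of 0.05 and 0.08 and not called. Of 20 cytosolic aminoacyl-tRNA synthetases 9 were called higher and 1 lower. WARS1, the tryptophan enzyme, stood at 405.5, 494, 593, 647 and 480 CPM, against 294 to 344 CPM (median 322), without overlap, and FARSA, a subunit of the phenylalanine enzyme, was the 1 called lower, at -0.17. The list's median in each group was 0.05 to 0.23 on the log2 scale, against 0.65 for untransduced library 2 over the mean of 1 and 3.

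Endoplasmic reticulum chaperones moved little. Of 20 tested, 3 were called higher and 3 lower, and the median was -0.08. HSPA5, the main chaperone of that compartment and a target of the ATF6 and XBP1 branches of the unfolded protein response, was at 0.12 and HSP90B1 at 0.10, neither called. HERPUD1, whose promoter also answers to ATF4, was called higher, with 36.7, 46.8, 55.5, 62.5 and 46.9 CPM in number 3 libraries, against 23 to 30.6 CPM (median 24.8) in numbers 1 and 2. In untransduced library 2 the median of the same list was 0.46 above the mean of libraries 1 and 3.

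Heat shock genes, a list of cytosolic chaperones with the mitochondrial pair HSPD1 and HSPE1, were lower in number 3 libraries: 12 of 14 tested members were called lower and none higher, with a median of -0.45. HSPH1, the Hsp110 exchange factor, stood at 159, 169, 119, 131 and 174.5 CPM in number 3 libraries, against 197 to 337 CPM (median 274) in numbers 1 and 2. DNAJB1, an Hsp40 co-chaperone, stood at 134.5, 119, 98.9, 91.3 and 115.5 CPM, against 165 to 195.5 CPM (median 176.5). HSPA8, the constitutive Hsp70, stood at 2310, 2219, 2016, 1722 and 2280 CPM, against 2330 to 3547 CPM (median 2649), so its groups came close but did not overlap. HSPA1A and HSPA1B are near-identical copies between which reads can be split either way, and both were called lower, at -0.69 and -0.73. HSP90AA1 and HSP90AB1, the cytosolic Hsp90 genes, were at 0.10 and -0.11 and not called. In untransduced libraries 1, 2 and 3 HSPH1 stood at 233, 76.0 and 227 CPM and HSPA8 at 2901, 866 and 2858 CPM, and all 12 called members were lower in library 2 than in the mean of 1 and 3.

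HSF1 binds repeats of the triplet GAA in alternating orientation; the motif searched was GAA, TTC and GAA with any 2 bases (NN) between neighbours, and the same on the other strand (TTC, GAA, TTC). It was in 0.490% of the 35116 windows and in a window of 0.524% of tested genes, and 6 of the 14 heat shock genes held it. These were HSPA8, HSP90AA1, HSP90AB1, DNAJA1, HSPD1 and CHORDC1; both uncalled Hsp90 genes are thus among those with the motif. The windows of HSPA8 and of HSPD1, the mitochondrial Hsp60 gene, hold it in 2 places each, overlapping in HSPD1:
HSPA8, chr11:123062087-123062386, strand minus: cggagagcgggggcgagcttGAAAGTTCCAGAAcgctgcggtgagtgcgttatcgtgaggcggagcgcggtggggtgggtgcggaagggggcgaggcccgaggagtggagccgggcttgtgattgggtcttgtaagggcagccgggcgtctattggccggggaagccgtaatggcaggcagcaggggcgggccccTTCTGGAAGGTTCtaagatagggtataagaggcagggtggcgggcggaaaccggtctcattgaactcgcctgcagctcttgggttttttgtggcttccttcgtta
HSPD1, chr2:197499791-197500090, strand minus: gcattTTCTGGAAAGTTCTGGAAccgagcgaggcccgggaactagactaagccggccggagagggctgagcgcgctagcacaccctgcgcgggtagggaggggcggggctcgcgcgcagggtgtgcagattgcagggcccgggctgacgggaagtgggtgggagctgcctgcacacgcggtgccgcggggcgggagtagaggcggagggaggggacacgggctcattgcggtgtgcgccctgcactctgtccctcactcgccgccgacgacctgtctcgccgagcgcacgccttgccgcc
HSPD1 stood at 812, 816, 726, 786 and 818 CPM in number 3 libraries, against 959 to 1099 CPM (median 1013) in numbers 1 and 2, without overlap.

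Ribosome assembly genes of the nucleolus, a list added after 2 of its members, UTP20 and URB2, were seen among the largest falls, were lower as well: 39 of 49 tested were called lower and none higher, with a median of -0.47. UTP20, a scaffold of the small-subunit processome, stood at 63.9, 63.9, 48.4, 48.7 and 56.2 CPM in number 3 libraries, against 80.6 to 168 CPM (median 137) in numbers 1 and 2. URB2 stood at 65.9, 64.3, 57.5, 48.8 and 62.9 CPM, against 116 to 171 CPM (median 137). Both lay below all the others in all 5 groups, and in untransduced library 2 they stood at 21.9 and 40.01 CPM, against 71.7 and 142 CPM in library 1 and 81.4 and 121 CPM in library 3. POLR1A, the largest subunit of RNA polymerase I, was at -0.83 and UBTF, its upstream binding factor, at -0.62, both called. Fibrillarin (FBL), nucleophosmin (NPM1) and dyskerin (DKC1), abundant nucleolar proteins, were at 0.07, -0.07 and -0.09 and not called. The cytosolic ribosomal proteins did not follow: 16 of 78 were called higher and none lower, with a median of 0.11, and this count depended on the number compared, at 52 against number 1 alone and 7 against number 2 alone, and at 29 with the replicate number as a block.

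DNA replication genes were lower, mitotic genes not. Of 19 replication genes tested, 13 were called lower and 1 (CDT1, a licensing factor) higher, with a median of -0.31, while of 19 mitotic genes 5 were called higher and 3 lower, with a median of 0.03. CCNE2, a cyclin of the G1 to S transition, stood at 19.0, 21.5, 20.2, 20.02 and 21.5 CPM in number 3 libraries, against 29.5 to 39.5 CPM (median 34.2) in numbers 1 and 2. PCNA, the sliding clamp, stood at 139.5, 141, 129, 134 and 158 CPM, against 170 to 215 CPM (median 185). Neither overlapped, and the 5 number 3 libraries were close to each other. In untransduced libraries 1, 2 and 3 PCNA stood at 197, 147 and 177 CPM, lowest in library 2, and CCNE2 at 26.5, 27.3 and 31.2 CPM, where library 2 lay between the others. Of the 13 replication genes called lower, 12 were also lower in untransduced library 2 than in the mean of 1 and 3, and the list's median there was -0.20. MYC, a driver of both nucleolar and replication genes, was called lower at -0.24, and E2F1 was at 0.04 and not called. In bulk RNA, fewer cells in a phase and less RNA per cell cannot be told apart.

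**Figure D2:**
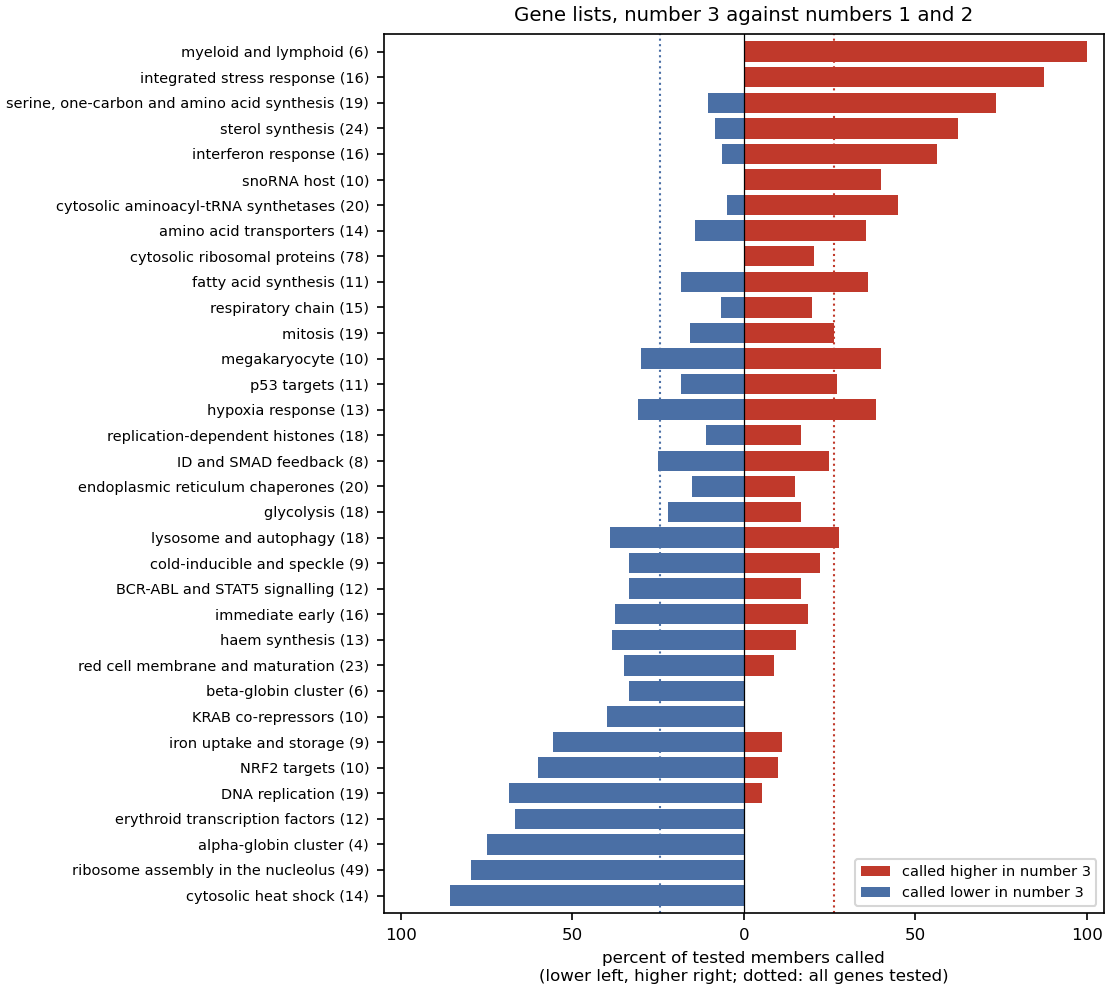
Share of the tested members of each of 34 gene lists called higher (red, to the right) or lower (blue, to the left) in number 3 libraries than in numbers 1 and 2, edgeR adjusted p under 0.05, with the number tested in brackets. Dotted lines mark the shares over all genes tested, 26.3% higher and 24.3% lower; the myeloid and lymphoid, stress response, synthesis and sterol lists lie at the top and heat shock, ribosome assembly and the alpha-globin cluster at the bottom.

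Sterol synthesis genes were higher: 15 of 24 were called higher and 2 lower, with a median of 0.33. MSMO1, a sterol demethylase, stood at 67.0, 93.2, 90.2, 109.8 and 107.4 CPM in number 3 libraries, against 38.6 to 53.6 CPM (median 41.4) in numbers 1 and 2. INSIG1, which holds SREBP in the endoplasmic reticulum, stood at 404, 457, 446, 414 and 477 CPM, against 202 to 317 CPM (median 285). Neither overlapped. SQLE, squalene epoxidase, was at -0.02 and not called, and PMVK, a kinase of the mevalonate pathway, was called lower at -0.32. Among 11 fatty acid genes 4 were called higher and 2 lower, with a median of 0.11. Over all genes tested the shares were 26.3% and 24.3%, so nothing is read from the fatty acid counts. FADS1, a fatty acid desaturase, stood at 1357, 1505, 1492, 1335 and 1371 CPM, against 499 to 988.5 CPM (median 768), without overlap, and SREBF1, the fatty acid regulator, was called lower at -0.45. In untransduced libraries 1, 2 and 3 INSIG1 stood at 418, 245 and 329 CPM and FADS1 at 1451, 814 and 1115 CPM, both lowest in library 2. Of the 15 sterol genes called higher, 7 were higher in untransduced library 2 than in the mean of 1 and 3, and the median of the list there was -0.13.

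Genes named for induction by interferon were partly higher, with 9 of 16 tested called higher and 1 lower and a median of 0.42. Those with the highest levels were the IFITM genes, which encode membrane proteins that restrict virus entry. IFITM2 stood at 80.8, 73.6, 84.5, 71.0 and 82.8 CPM in number 3 libraries, against 26.5 to 46.7 CPM (median 36.0) in numbers 1 and 2, and at 53.4, 69.7 and 50.1 CPM in untransduced libraries 1, 2 and 3. IFITM1 and IFITM3 were called higher too, at 0.68 and 0.66, and untransduced library 2 was the lowest of the 3 for both. IFIT1, ISG15, OAS3 and IFIH1, other members of the list, were not called, at 0.44, 0.23, 0.27 and 0.25. MX1, OAS1, IFIT2 and IFI27 did not pass the filter.

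**Figure D3:**
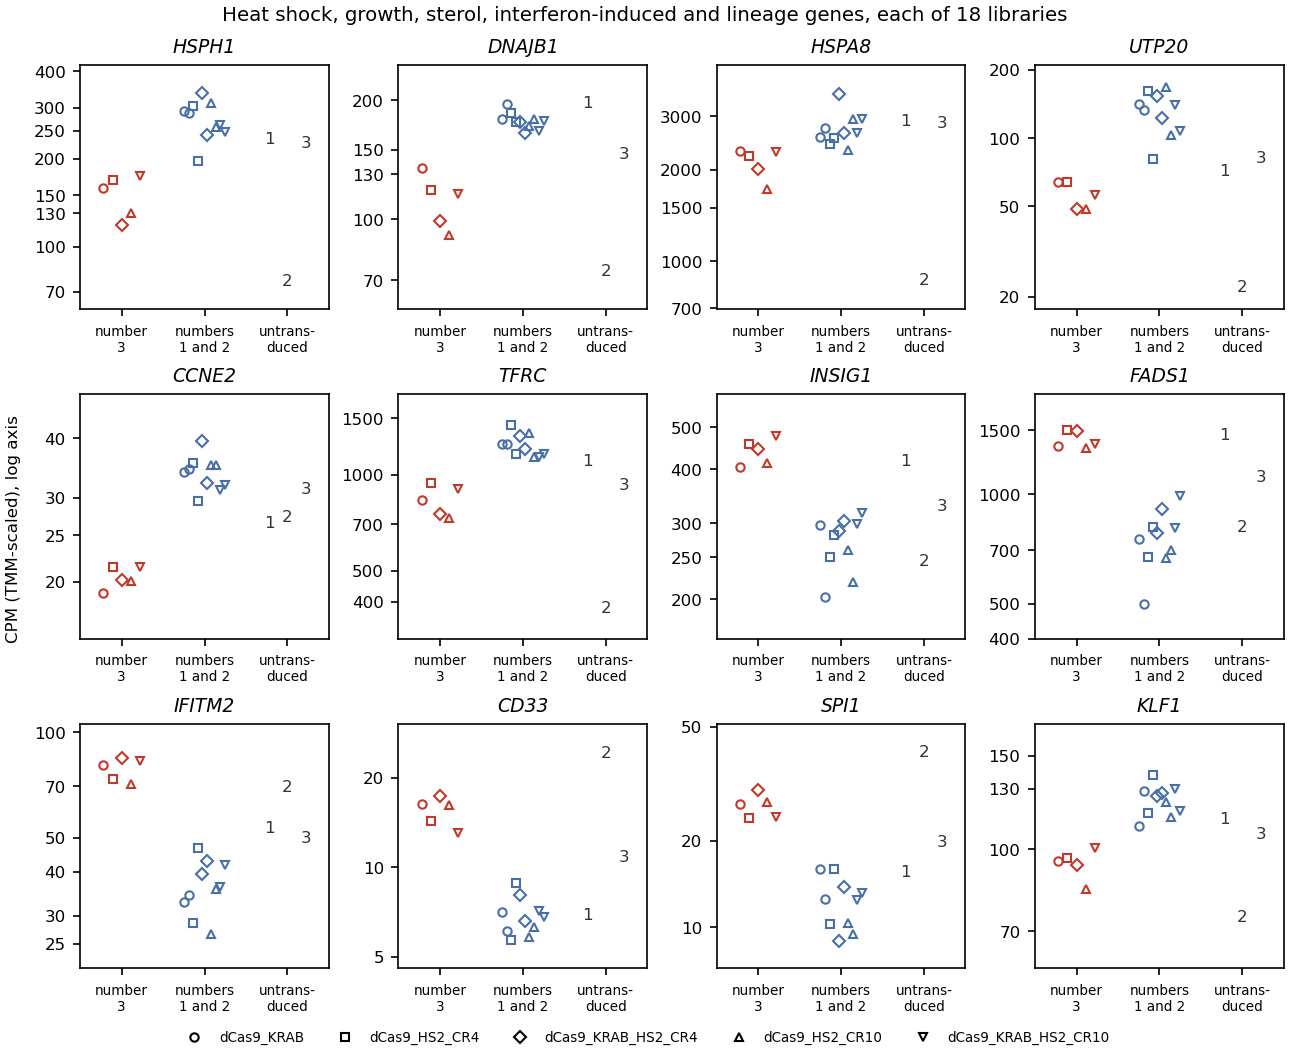
Levels of 12 heat shock, growth, sterol, fatty acid, interferon-induced and lineage genes in each of the 18 libraries, in TMM-scaled CPM on a log axis, with symbols as for the stress genes. Number 3 libraries do not overlap numbers 1 and 2 in any panel, but the genes were chosen with these values known. Of all genes tested, 9.77% had all 5 number 3 libraries above all 10 others and 10.9% had them below. Untransduced library 2 lies below every lentiviral library for HSPH1, DNAJB1, HSPA8, UTP20, TFRC and KLF1. It lies inside the range of numbers 1 and 2 for INSIG1 and FADS1.

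Antioxidant genes under NRF2 were lower, 6 of 10 called against 1 called higher, with a median of -0.34. NQO1, a quinone reductase, and SRXN1, sulfiredoxin, were at -0.50 and -0.68. SLC7A11, also known as an NRF2 target, was called higher, as given above with the transporters. In untransduced library 2 the median of the NRF2 list was 0.05. Among 13 hypoxia genes, 5 were called higher and 4 lower, with a median of 0.04, beside 26.3% and 24.3% over all genes tested. The highest and lowest were VEGFA, the angiogenic factor and also a target of ATF4, at 0.83 and SLC2A1, the main glucose importer, at -0.63.

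Erythroid genes were lower in part. Of 12 erythroid transcription factors tested 8 were called lower and none higher, with a median of -0.38. KLF1, an activator of adult globin, stood at 95.2, 96.3, 93.4, 84.1 and 100.7 CPM in number 3 libraries, against 110.5 to 138 CPM (median 124.5) in numbers 1 and 2, without overlap. ZFPM1, a partner of GATA1, was at -0.73, while GATA1 itself was at 0.09 and not called. TFRC, the transferrin receptor, stood at 830.5, 943, 753.5, 732 and 900 CPM, against 1131 to 1426 CPM (median 1223). Among untransduced libraries 1, 2 and 3 TFRC stood at 1103, 383 and 927 CPM and KLF1 at 114, 74.5 and 107 CPM, both lowest in library 2. Of 23 genes of the red cell membrane and its maturation, 8 were called lower and 2 higher, with a median of -0.02. Over all genes tested 24.3% were called lower and 26.3% higher. The lowest of the list was SLC4A1, the anion exchanger band 3, at -0.84. HBZ, the embryonic alpha-like globin, stood at 168, 227, 242, 170 and 232 CPM, against 229 to 353 CPM (median 296), a log2 fold change of -0.54 ± 0.08 with overlapping groups. HBA1 and HBA2, near-identical copies, were called lower at -0.23 and -0.27, also with overlap. Number 1 was itself below number 2 for both, by a log2 difference of -0.20 and -0.21, not called.

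Some genes of other blood lineages were higher. Of 14 myeloid and lymphoid markers 6 passed the filter, and all 6 were called higher, with a median of 0.81. Without the filter 7 of 12 were called higher and 0 lower, with a median of 0.52. Rises were also more common among low-level genes: 26.3% of all genes tested were called higher, 34.8% at 5 to 20 CPM and 44.1% at 1 to 5 CPM. CD33, a myeloid surface receptor, stood at 16.4, 14.3, 17.4, 16.2 and 13.0 CPM in number 3 libraries, against 5.71 to 8.83 CPM (median 6.71) in numbers 1 and 2. SPI1, the myeloid factor PU.1, stood at 26.8, 24.0, 30.2, 27.4 and 24.1 CPM, against 8.96 to 16.0 CPM (median 12.5), and LYZ, lysozyme, at 21.1, 24.6, 26.6, 28.7 and 23.7 CPM, against 10.8 to 16.8 CPM (median 12.6). None of these overlapped. The summed level of the list was 146 to 190 CPM in number 3 libraries and 101 to 131 CPM in numbers 1 and 2, and PTPRC, the common leukocyte antigen, made up 71.7 to 109.5 CPM of it in number 3 libraries, against 64.2 to 97.7 CPM in numbers 1 and 2, with overlap. The summed level in untransduced libraries 1, 2 and 3 was 185, 460 and 271 CPM, SPI1 stood at 15.6, 41.02 and 19.8 CPM, and CD33 at 6.94, 24.3 and 10.9 CPM, each highest in library 2. The part of other cells in this was not tested. The defining markers CD14, MPO, CSF1R, CD3E, CD79A and NKG7 did not pass the filter, and ELANE and MS4A1 were at 0 in all 15 libraries. This count depended on single libraries: 3 members were called without dCas9_KRAB_HS2_CR4 library 3 or without dCas9_HS2_CR10 library 3. Among 10 megakaryocyte genes 4 were called higher and 3 lower, with a median of 0.16. Beside 26.3% and 24.3% over all genes tested, nothing is read from these counts. The highest and lowest were ITGA2B, the platelet integrin, at 1.54 and GP1BB, a platelet glycoprotein, at -0.96. GP9, PF4 and SELP were at 0 in all 15.

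Among genes at 5 CPM or more that number 3 placed above both other libraries in each of the 5 groups, the 12 largest rises were CHAC1, INHBE, DDIT4, FUT1, the unnamed transcript NR_027439, GDF15, ULBP1, ERBB3, ADM2, APOL6, ZC3H6 and FYB1, at log2 fold changes from 2.95 down to 1.77. FUT1, a fucosyltransferase of H antigen synthesis, stood at 23.2, 32.9, 55.9, 61.7 and 34.7 CPM in number 3 libraries, against 4.91 to 11.5 CPM (median 8.79) in numbers 1 and 2. ULBP1 encodes a ligand of the natural killer receptor NKG2D and ERBB3 a receptor of the EGFR family; both were higher in untransduced library 2, at 46.8 and 39.8 CPM, than in any lentiviral library. The 12 largest falls were NEFH, SLC30A1, URB2, UTP20, RELN, VASN, TRMT61A, NBPF1, TMPPE, ARMC5, TGFBRAP1 and KLHL11, from -1.53 to -1.08. NEFH, the heavy neurofilament chain, stood at 49.2, 36.5, 26.4, 19.95 and 38.2 CPM, against 83.4 to 108 CPM (median 98.1), and at 50.3, 6.16 and 44.7 CPM in untransduced libraries 1, 2 and 3. RELN and NBPF1 departed from untransduced library 2: RELN, an extracellular protein, was at 95.3 to 112 CPM in number 3 libraries, against 160 to 297 CPM in numbers 1 and 2, and highest of the untransduced libraries in library 2, at 318 CPM. PIM1, a kinase induced by STAT5, stood at 601, 740.5, 907, 885 and 738 CPM, against 351 to 464 CPM (median 394). BCR, whose promoter drives the fusion kinase, was called lower at -0.71. Both belong to a list of BCR-ABL and STAT5 signalling and do not stand for it. Of its 12 tested members 2 were called higher and 4 lower, beside 26.3% and 24.3% over all genes tested. Its median was -0.01, with a range of -0.71 to 0.94.

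The 5 groups differed in the size of the difference. For the stress list, the median difference of number 3 from numbers 1 and 2 was 0.52 in dCas9_KRAB, 0.77 in dCas9_HS2_CR4, 1.63 in dCas9_KRAB_HS2_CR4, 1.5 in dCas9_HS2_CR10 and 1.04 in dCas9_KRAB_HS2_CR10. Heat shock and ribosome assembly medians were also furthest from 0 in dCas9_KRAB_HS2_CR4 and dCas9_HS2_CR10, at -0.59 and -0.62 and at -0.62 and -0.60. For sterol synthesis, DNA replication and the interferon list the medians ran from 0.20 to 0.41, from -0.31 to -0.18 and from 0.36 to 0.61 over the 5 groups. With 1 number 3 library in a group, a group and its library cannot be told apart.

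**Figure D4:**
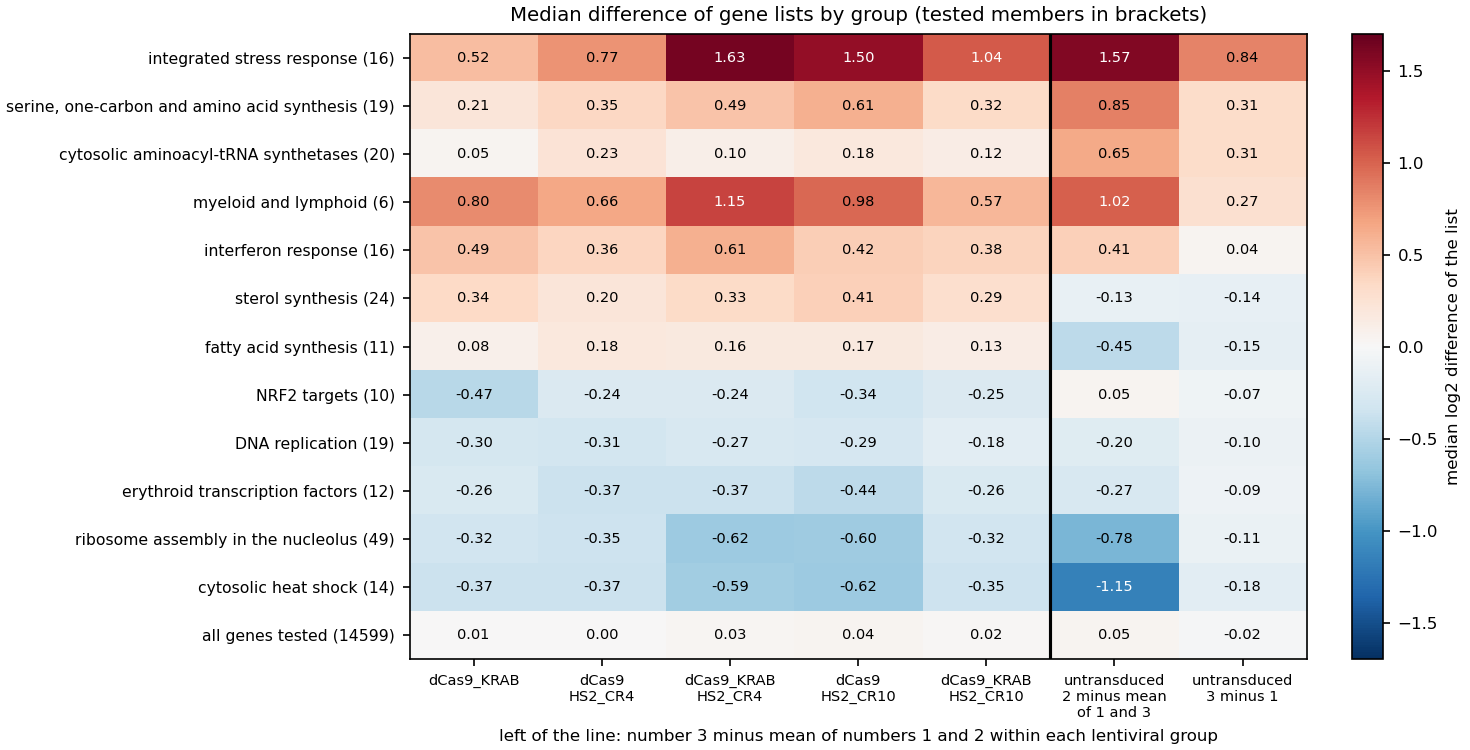
Median log2 difference of 12 gene lists and of all genes tested: the first 5 columns give number 3 minus the mean of numbers 1 and 2 within each lentiviral group, the last 2 give untransduced library 2 minus the mean of 1 and 3 and untransduced library 3 minus library 1. Stress response is 0.52 to 1.63 in the lentiviral groups and 1.57 in untransduced library 2, while sterol synthesis is 0.20 to 0.41 in the lentiviral groups and -0.13 in untransduced library 2.

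Whether the number 3 difference depended on the construct was tested in 3 ways that the choice of libraries did not use. By the KRAB domain (3 groups with it against 2 without), 0 of 14599 genes (0%) were called by edgeR and 0 by DESeq2, and 350 had an unadjusted p under 0.05 in edgeR. By KRAB with a gRNA (2 groups against 3), 0 genes (0%) were called by edgeR and 0 by DESeq2, and 344 had an unadjusted p under 0.05 in edgeR. Over all 5 groups at once 0 genes (0%) were called by edgeR, where 165 had an unadjusted p under 0.05, and 10 by the likelihood ratio test of DESeq2, so the call depended on the tool. The 10 were AKNA, ASNS, ATF3, CHAC1, CTH, DDIT3, DDIT4, NEFH, SESN2 and TRIB3, of which all but AKNA and NEFH are in the stress or amino acid synthesis lists (DESeq2 adjusted p = 0.00801 for CHAC1 and 0.00107 for CTH). The smallest p by edgeR in the last test were those of CTH, NEFH and CHAC1 (edgeR adjusted p = 0.98 for each). For CHAC1 the log2 fold change of number 3 was 0.15 lower in the KRAB groups (95% interval of the difference -0.84 to 0.55, edgeR adjusted p = 0.999). It was 0.59 higher in the 2 groups with KRAB and a gRNA (-0.03 to 1.21, edgeR adjusted p = 1). With 1 number 3 library in each group, these tests do not exclude differences of the sizes inside the intervals.

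The HS2 effect itself could be read within each number. HBE1 stood at 61.1 CPM in dCas9_KRAB_HS2_CR4, against 349.9 CPM in dCas9_HS2_CR4, among number 3 libraries, 5.73-fold lower. Among number 2 and number 1 libraries it was 5.90-fold and 5.86-fold lower. With CR10 HBE1 stood at 74.2 CPM in dCas9_KRAB_HS2_CR10, against 390 CPM in dCas9_HS2_CR10, among number 3 libraries, 5.26-fold lower, and it was 4.96-fold lower in number 2 and 3.47-fold lower in number 1. The fetal genes HBG1 and HBG2, near-identical copies, were 2.89-fold and 3.49-fold lower with CR4 in number 3 libraries and 2.16-fold and 2.45-fold lower with CR10. The difference of the number 3 effect between KRAB groups with a gRNA and the other groups was -0.17 for HBE1 (95% interval -0.55 to 0.21), -0.12 for HBG1 (-0.47 to 0.24) and -0.18 for HBG2 (-0.53 to 0.17), on the log2 scale, with an edgeR adjusted p of 1 for each. HBE1 over all groups was at -0.05 and not called, as were HBG1 and HBG2, at -0.14 and -0.16. HBD, the minor adult globin, was lower in number 3 libraries, at 10.3, 6.20, 2.46, 5.73 and 2.83 CPM, against 4.65 to 17.9 CPM (median 12.2) in numbers 1 and 2, a log2 fold change of -1.08 ± 0.14. It was 2.52-fold lower with KRAB in number 3 of CR4 and 2.03-fold lower in number 3 of CR10.

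**Figure D5:**
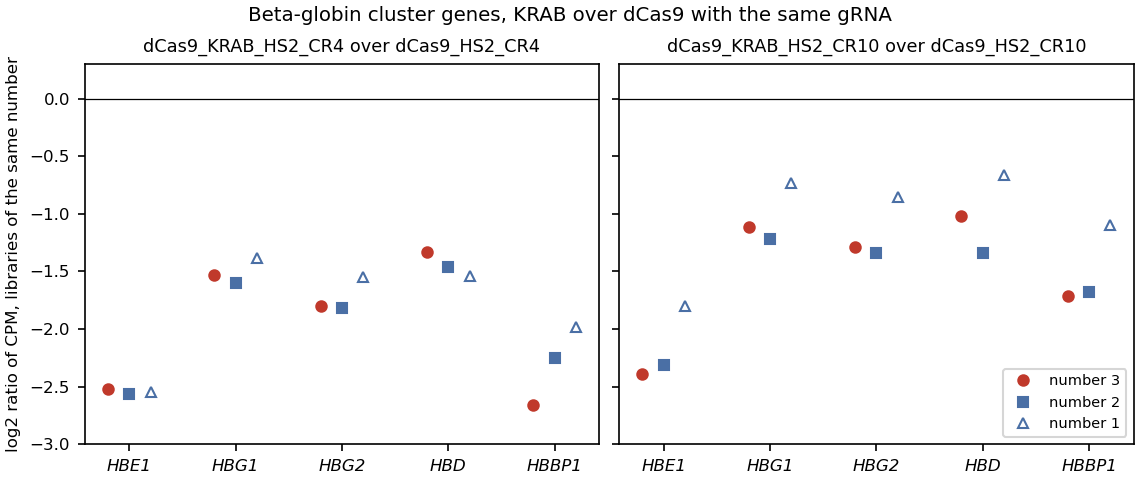
Log2 ratio of CPM of 5 beta-globin cluster genes in dCas9_KRAB_HS2_CR4 over dCas9_HS2_CR4 (left) and in dCas9_KRAB_HS2_CR10 over dCas9_HS2_CR10 (right), between libraries of the same number; red circles are number 3, blue squares number 2 and open triangles number 1. For HBE1 the ratio with CR4 is -2.52 in number 3, -2.56 in number 2 and -2.55 in number 1, and with CR10 -2.39, -2.31 and -1.80.

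ACSM3, a mitochondrial acyl-CoA synthetase, differed by number, and its level varied between constructs, for which no contrast was fitted. Among numbers 1 and 2, ACSM3 stood at 83.55 to 104.1 CPM in the groups with KRAB and a gRNA. In the other lentiviral groups ACSM3 stood at 32.7 to 62.6 CPM in these numbers. It stood at 127, 104, 278, 131 and 219 CPM in number 3 libraries, against 32.7 to 104.1 CPM (median 56.0) in numbers 1 and 2, and at 98.8, 399 and 184 CPM in untransduced libraries 1, 2 and 3. Its log2 fold change for number 3 was 1.46 ± 0.08, and the difference of that effect between KRAB groups with a gRNA and the others was -0.08 (95% interval -0.49 to 0.32, edgeR adjusted p = 1). ZNF10, from which the KRAB domain was taken, stood at 5.53 to 6.602 CPM in number 3 libraries, against 6.19 to 9.90 CPM in numbers 1 and 2, so the ranges overlapped.

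Numbers 1 and 2 were also compared with each other. Number 3 was chosen because it stood apart, and the comparisons use different numbers of libraries. Their counts and sizes are therefore given as a description, and nothing is read from a smaller difference here. With number 3 kept as a term of its own, edgeR called 152 genes (1.04%), 126 (0.863%) higher and 26 (0.178%) lower in number 1 than in number 2, with 2918 at an unadjusted p under 0.05. They included UTP20, NBPF1 and TGFBRAP1, which are among the 12 largest falls in number 3 libraries and were higher in number 1 than in number 2, by 0.48, 0.45 and 0.44 on the log2 scale (edgeR adjusted p = 0.044, 0.036 and 0.04). By list, 3 of 49 ribosome assembly genes, 2 of 19 mitotic genes, 1 of 13 hypoxia genes and 1 of 23 red cell genes were higher in number 1, and 2 of 78 ribosomal proteins were lower. Of the 16 stress, 14 heat shock, 24 sterol and 19 replication genes 0 were called, where the share over all genes was 1.04%. At 5 CPM or more the median absolute log2 fold change was 0.222 for number 3 against the others and 0.108 for number 1 against number 2. CHAC1 was at -0.11 ± 0.17 (SE) between number 1 and number 2 and DDIT4 at -0.07 ± 0.13. The count of 152 depended on single libraries, from 0 without either of the dCas9_HS2_CR4 or dCas9_HS2_CR10 libraries numbered 1 or 2 to 864 without dCas9_KRAB_HS2_CR4 library 1.

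Kinds of transcript differed as well. Of 773 long noncoding genes tested 41.4% were called higher and 6.73% lower, of 484 pseudogenes 37.6% and 7.02%, and of 12794 protein coding genes 25% and 26.3%. Level moved with this: the median log2 fold change was 0.49 for genes under 1 CPM, 0.36 at 1 to 5 CPM, 0.09 at 5 to 20 CPM, -0.07 at 20 to 100 CPM and -0.11 over 100 CPM. At 5 CPM or more 45.4% of 238 long noncoding genes were called higher, and NEAT1, the scaffold RNA of paraspeckles, stood at 190 to 231 CPM in number 3 libraries, against 87.2 to 172 CPM (median 131) in numbers 1 and 2. In untransduced libraries 1, 2 and 3 NEAT1 stood at 109.9, 62.4 and 78.8 CPM, lowest in library 2. Across 10027 genes with a transcript length the log2 fold change had a Spearman correlation of -0.14 with length and -0.01 with GC content, a description over genes that share their libraries. The part of transcript level and kind in these differences was not tested.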

How the data were processed

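The deposited files give, for each of the 18 libraries, counts per RefSeq transcript, which the authors made from reads. For these counts the sources give no aligner settings or counting rule; Bowtie2, Picard, SAMtools, DESeq, R 3.1.2 and the build hg19 are listed, per the submitters' processing notes, without their roles. Every deposited count is even, so 2 counts stand for 1 fragment where both mates were counted. Transcripts were summed per gene (24395 genes). Counts were fitted with edgeR 4.0.16 in R 4.3.3 (quasi-likelihood test, TMM scaling, filterByExpr for low counts, group as a term, Benjamini-Hochberg threshold 0.05); CPM is on the TMM scale of all 18 libraries, and errors of log2 fold changes are from the fit of the 15 lentiviral libraries. DESeq2 1.42.0 was an alternative.

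The members and gene lists were chosen with earlier results of these data known, and the ribosome assembly list was added after values were seen. Named genes were the 12 largest rises and falls at 5 CPM or more in the same direction in all 5 groups, up to 4 called members per list by smallest p, the globin genes, ZNF10 and ACSM3, and the leading genes of each interaction test. Others, among them ATF4, DDIT3, ATF3, ASNS, HSPH1, HSPA8, HSPD1, POLR1A, UBTF, MYC and members that were not called, were chosen after their values were seen.

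Same-numbered libraries deviated together from their group means: all 30 pairs of the same number had r over 0.1 (0.17 to 0.89), and pairs of different numbers ran from -0.79 to 0.64. This pairing comes from the data, not from a label. The library kit does not mark strand, so reads of a gene and an antisense partner cannot be told apart.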

Additional observations from a re-analysis of the deposited data

Results flagged for a closer look

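Of 72 sets of libraries looked at (33 genes and 3 library measures, in number 3 and in numbers 1 and 2), 2 held a library far from the rest, where chance gives about 1 in 20. ATF4 stood at 322.9 CPM in dCas9_HS2_CR4 library 2, against 287.1 CPM in the next highest of numbers 1 and 2, a gap of 0.504 of the range. HSPA8 stood at 3547 CPM in dCas9_KRAB_HS2_CR4 library 1, against 2945 CPM in the next highest, a gap of 0.495 of the range.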

How the results depend on the processing

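The count of genes differing in number 3 libraries was 7381 and stayed within 1.5 times of that under every alternative run: 7564 by DESeq2, 7857 with the replicate block, 7987 against number 1 only, 6338 against number 2 only, 6321 with all 18 libraries and 6885 without the 2 libraries of highest ribosomal RNA share (chosen after seeing the data), and 6110 to 7829 with 1 library left out. The tests by construct called 0 genes by edgeR with and without the replicate block. Without a filter on low counts they called 4 by KRAB domain (LINC00861, RN7SK, RN7SL1 and RN7SL2), 34 by KRAB with a gRNA and 41 by group, and DESeq2 called 10 by group. Leaving out 1 library gave 0 by KRAB domain, 0 to 1 by KRAB with a gRNA (RNU2-1, without dCas9_HS2_CR10 library 2) and 0 by group. The HBE1, HBG1 and HBG2 differences kept their sign, at -0.18, -0.13 and -0.19 with the replicate block and at -0.30 to -0.03, -0.17 to -0.06 and -0.23 to -0.13 with 1 library left out. The 152 genes between numbers 1 and 2 were the least stable count: 889 by DESeq2, 864 without a filter, 230 with a mean of at least 50 counts, 2 without the replicate block on numbers 1 and 2 alone (MKI67 and SHPRH), 0 without the group dCas9_KRAB, dCas9_HS2_CR4 or dCas9_HS2_CR10, 967 without dCas9_KRAB_HS2_CR4, 446 without dCas9_KRAB_HS2_CR10, and 0 to 864 with 1 library left out; the cause was not tested. Among named genes 209 of 4850 values moved by over 1 SE and no called gene changed sign; HBE1, not called, ran from -0.09 to 0.01 with 1 library left out. Counting depth limits genes under 1 CPM most.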

Other observations

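Lists outside the main groups gave mixed counts in number 3 libraries. Over all genes tested 26.3% were called higher and 24.3% lower. Both p53 counts and the higher count of the lysosome list lie near these shares, so nothing is read from them. Medians of the p53 and lysosome lists were -0.04 and 0, so BBC3 and WIPI1, the highest of each, do not stand for their lists. Of 11 p53 targets tested 3 were called higher and 2 lower: BBC3, the pro-apoptotic protein PUMA, was at a log2 fold change of 1.15 and TP53INP1, an autophagy and p53 cofactor, at 1.09, while MDM2 was at -0.16 and not called. Of 18 lysosome and autophagy genes 5 were called higher, among them the autophagy genes WIPI1 at 1.07, GABARAPL1 at 0.69 and MAP1LC3B at 0.34, and 7 lower, among them LAMP1 at -0.50. In untransduced library 2, against the mean of 1 and 3, 5 of the 5 called higher were higher and 5 of the 7 called lower were lower, beside 2985 of 3839 and 2746 of 3542 over all genes called. Of 10 tested genes of the KRAB co-repressor complex 4 were called lower, CHD4 at -0.47, DNMT1 at -0.30, TRIM28 at -0.25 and HDAC1 at -0.23, and none higher.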
